A study of Mus musculus with 1 sample.

Results

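The genes described here are the 5 Ikaros family zinc fingers of the mouse, *Ikzf1* (Ikaros), *Ikzf2* (Helios), *Ikzf3* (Aiolos), *Ikzf4* (Eos) and *Ikzf5* (Pegasus). They were taken by symbol, and all 5 were found among the 32285 genes of the deposited matrix. They were measured in 1 library of single cells from the bone marrow (femora and tibiae) of C57BL/6 mice, sorted to lack mature lineage markers and to carry Kit. Stem cells and most kinds of blood progenitor lie in this fraction. The cells were controls with the genotype CD45.2(+) Brd9fl/fl, and per the study's methods they carried the floxed alleles without the Mx1-Cre that deletes them. The mice had received 3 doses of 20 mg/kg pIpC, a synthetic double-stranded RNA that induces interferon, and were taken 8 weeks later. The series text places the injections 4 weeks after birth, while the sample's labels name a transplant donor and a CD45.1(+) CD45.2(-) recipient, so which of these applies was not settled. The Brd9-deleted cells are not analysed here, and every comparison is between cells of this library.

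Ikaros family proteins bind DNA through zinc fingers near their amino terminus and bind each other, in like or mixed pairs, through a separate pair of fingers at the carboxyl terminus. Many recruit repressor complexes, above all NuRD, which combines a chromatin remodeller with histone deacetylases. Ikaros is required for lymphocyte development and acts from the multipotent stage on, Aiolos and Helios are best known in lymphocytes, Eos in regulatory T cells, and Pegasus is the most divergent member, which binds another DNA sequence and is tied to platelet formation in people.

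The shared architecture could be read from the GENCODE M21 transcripts on GRCm38. For each gene, the coding transcript with the most fingers of the form Cys-Cys-His-His or Cys-Cys-His-Cys was used. *Ikzf1*, *Ikzf2*, *Ikzf3* and *Ikzf4* each encoded 6 such fingers, in proteins of 535, 532, 507 and 586 residues. *Ikzf5* encoded 5 fingers in 419 residues. Over aligned residues, Ikaros was 57.2% identical to Helios, 55.8% to Aiolos and 54.0% to Eos, but 29.3% to Pegasus. The second finger is shown because 4 members share all of its residues, and in human cells it is also the part of Ikaros and Aiolos through which thalidomide-type drugs bring them to cereblon. It is printed as coding DNA, 5′ to 3′ along the gene's strand, with the codons of the zinc-binding Cys and His residues in capitals.

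Ikzf1, chr11:11754024-11754086, plus strand: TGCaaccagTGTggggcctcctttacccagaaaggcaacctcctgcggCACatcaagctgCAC

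Ikzf2, chr1:69570581-69570643, minus strand: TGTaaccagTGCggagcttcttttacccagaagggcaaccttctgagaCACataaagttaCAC

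Ikzf3, chr11:98488940-98489002, minus strand: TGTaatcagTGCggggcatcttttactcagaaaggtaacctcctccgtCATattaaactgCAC

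Ikzf4, chr10:128640229-128640291, minus strand: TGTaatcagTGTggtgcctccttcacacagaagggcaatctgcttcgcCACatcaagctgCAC

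Ikzf5, chr7:131392501-131392563, minus strand: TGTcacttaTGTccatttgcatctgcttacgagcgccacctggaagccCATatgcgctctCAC

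All 5 stretches lie within a coding exon. The first 4 encode the same 21 residues, although *Ikzf2* and *Ikzf3* each differ from *Ikzf1* at 12 of 63 bases and *Ikzf4* differs at 10. *Ikzf5* shares 5 of the 21 residues with each of the others in this finger. At the carboxyl terminus *Ikzf5* is closer to the others. The first finger of the pair through which the proteins bind each other is printed in the same way for that reason.

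Ikzf1, chr11:11769411-11769473, plus strand: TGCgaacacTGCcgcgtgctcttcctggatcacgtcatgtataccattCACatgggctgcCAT

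Ikzf2, chr1:69538870-69538932, minus strand: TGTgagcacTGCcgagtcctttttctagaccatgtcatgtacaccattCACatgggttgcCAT

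Ikzf5, chr7:131391739-131391801, minus strand: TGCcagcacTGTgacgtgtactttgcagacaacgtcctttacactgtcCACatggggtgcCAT

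Here Ikaros and Helios shared 21 of 21 residues, and Pegasus shared 14 of 21 with each of them. Aiolos shared 17 and Eos 19 of 21 with Ikaros, fewer than in the second finger. The bases differ between the genes also where the residues are the same, at 11 of 63 between *Ikzf1* and *Ikzf2* in this finger. In the annotation, *Ikzf5* overlaps *Fgfr2* on the same strand, which had 1 UMI in the cells kept, and *Ikzf2* overlaps 2 intronic transcripts on its strand, *Gm28112* with 221 UMIs and *Gm29112* with 57 UMIs. The other overlaps with counted genes are on the opposite strand, the largest being *Pstk* with 3581 UMIs opposite *Ikzf5*.

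Expression was read from unique molecular identifiers (UMIs), each of which stands for 1 captured transcript. The study's filter on cells kept 7645 of 8817 barcodes, with a median of 18696 UMIs per cell. No barcode occurred more than once. Cells were sorted into 14 gates by summed UMIs of marker lists that hold no family member, and a gate is called like the cell type its list marks. The gates took 6365 cells (83.3%), while 1072 cells passed no list and 208 passed the lists of more than 1 lineage and were set aside. Of the cells gated, 1310 lay within 1.5-fold of the cut on their list. At least 1 marker of a gate's own list was among its 10 leading genes by fold, in the conventional dendritic-like gate *Xcr1* alone. Leading genes of other lineages were found in the plasmacytoid dendritic-like gate, whose leading genes held *Siglech* and *Cox6a2* but also the lymphoid genes *Ly6d* and *Il7r*, and the B lineage-like gate of 15 cells, led by *Igha*, *Ebf1* and *Jchain*, of which *Igha* and *Jchain* are plasma cell genes. *Dntt* of the lymphoid-primed list ranked second in the *Flt3* multipotent-like gate, and *Cox6a2* of the plasmacytoid dendritic list was among the leading genes of the lymphoid-primed-like gate. The granulocyte-monocyte-like gate was led by *Cebpe* of the neutrophil list, ahead of its own *Ms4a3*, *Mpo*, *Elane* and *Ctsg*. The T or innate lymphoid-like gate held 38 cells with a median of 3656 UMIs, in a fraction sorted to lack mature lymphocytes.

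A level is the member's UMIs per 1000000 UMIs of the gate (CPM), with exact 95% Poisson intervals for summed UMIs and exact Clopper-Pearson intervals for shares of cells. A ratio of 2 levels has an exact conditional binomial interval. The single library has no replicate, so nothing was tested, and the intervals cover counting error only, not differences between mice or libraries.

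The members differed in where they were counted. *Ikzf1* was counted in every gate and was highest in the lymphoid-primed-like gate (238 CPM, interval 207 to 271). *Ikzf2* was concentrated in the T or innate lymphoid-like, basophil or mast-like and eosinophil-like gates (409, 349 and 319 CPM) and stood at 4.39 CPM in the neutrophil-like gate. *Ikzf4* was concentrated in the stem-like gate, and *Ikzf5* varied least. *Ikzf3* was rare and was counted mainly in the basophil or mast-like and T or innate lymphoid-like gates.

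**Figure D1:**
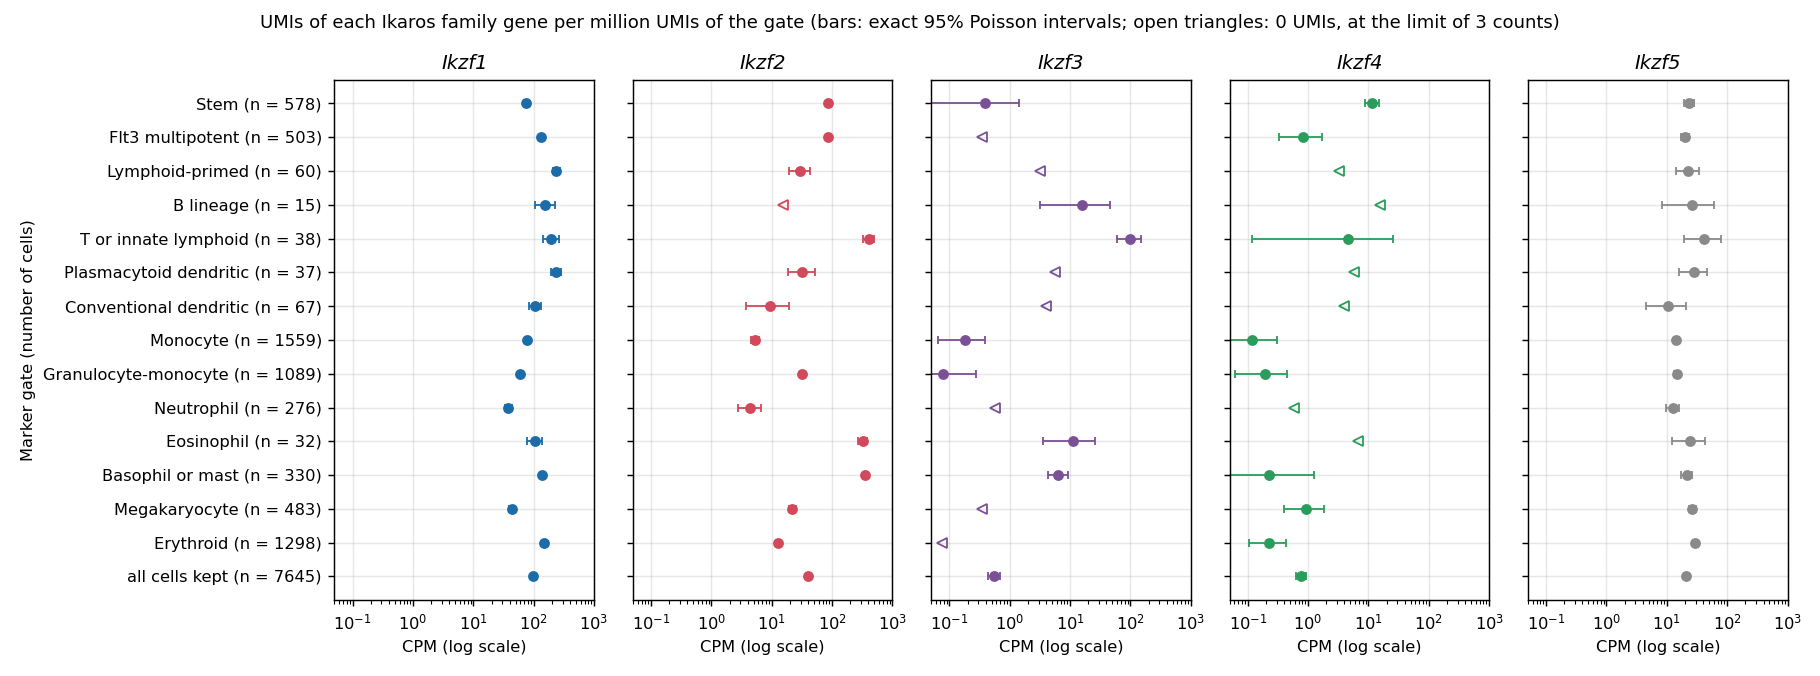
Levels of the 5 members in the 14 marker gates and in all cells kept, as CPM on a log axis with exact 95% Poisson intervals. Open triangles stand for gates with 0 UMIs and are drawn at the level that 3 counts would give. *Ikzf2* ranges from 4.39 to 409 CPM among the gates where it was counted, while *Ikzf5* ranges from 10.6 to 41.9 CPM.

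Over all cells kept, *Ikzf1* had 14933 UMIs in 5587 cells, *Ikzf2* 6140 UMIs in 2457 cells and *Ikzf5* 3188 UMIs in 2341 cells. *Ikzf4* had 115 UMIs in 110 cells and *Ikzf3* 83 UMIs in 65 cells. Of the family's 24459 UMIs, *Ikzf1* thus held 61.1%, *Ikzf2* 25.1% and *Ikzf5* 13.03%. These are shares of UMIs captured at the 3′ end, 1 per molecule, and capture can differ between genes. For that reason each member is compared with itself between gates.

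The stem-like gate, defined by *Procr*, *Hlf*, *Fgd5*, *Mecom*, *Slamf1* and *Mllt3*, was used as the common reference. It held 578 cells with 1004 family UMIs at a median depth of 8084 UMIs per cell, the shallowest of the gates that held 40 cells or more. A gene was called when its ratio to the stem-like gate was 2-fold or more in either direction, among genes with 50 UMIs or more in both gates together. The interval of the ratio was not part of the call, for members or for all genes. *Ikzf3* did not reach this minimum in any of these comparisons. *Ikzf4* reached it through its 59 UMIs in the stem-like gate alone, so that its calls as lower follow in part from the minimum and support nothing.

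Few members were called higher in any gate. In the lymphoid-primed-like gate *Ikzf1* was the only one of 4 members tested (1 higher, where 6.37% of all genes were called higher), and *Ikzf2* and *Ikzf4* were called lower (18.7% of all genes). In the basophil or mast-like gate *Ikzf2* was called higher (8.77% of all genes) and *Ikzf4* lower (21.9%). In the other 7 gates of 40 cells or more no member was called higher, where the share of all genes was 6.72% in the *Flt3* multipotent-like, 7.65% in the conventional dendritic-like, 11.9% in the monocyte-like, 9.62% in the granulocyte-monocyte-like, 8.26% in the neutrophil-like, 6.41% in the megakaryocyte-like and 14.3% in the erythroid-like gate. *Ikzf1* came to lie past 2-fold in the *Flt3* multipotent-like gate with the cuts doubled (2.01, interval 1.64 to 2.48), in the erythroid-like gate under a stricter cell filter (2.05, interval 1.77 to 2.38) and in the basophil or mast-like gate after thinning (2.08, interval 1.73 to 2.50).

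*Ikzf2* was called lower in 7 of these 9 gates. Beside the lymphoid-primed-like gate, it was called lower in the granulocyte-monocyte-like (30.1% of all genes were), monocyte-like (29.5%), neutrophil-like (42.3%), megakaryocyte-like (13.6%), erythroid-like (33.3%) and conventional dendritic-like (30.5%) gates. *Ikzf4* was called lower in all 9, these and the basophil or mast-like gate included, also in the *Flt3* multipotent-like gate, where 15.0% of all genes were lower and *Ikzf2* was not. *Ikzf5* was called lower in the conventional dendritic-like gate, but not with the cuts halved (0.616) or in Leiden clusters (0.858). The *Ikzf2* calls were lost in the granulocyte-monocyte-like gate with the cuts halved (0.716) and in megakaryocyte-like (0.597) and lymphoid-primed-like (1.14) Leiden clusters. By the shares above, being lower than in the stem-like gate was common among all genes. Over the 9 gates, from 6.37% (lymphoid-primed-like) to 14.3% (erythroid-like) of all genes were called higher. The calls of *Ikzf1* and *Ikzf2* as higher, each in a single gate, thus do not set the members apart from other genes.

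**Figure D2:**
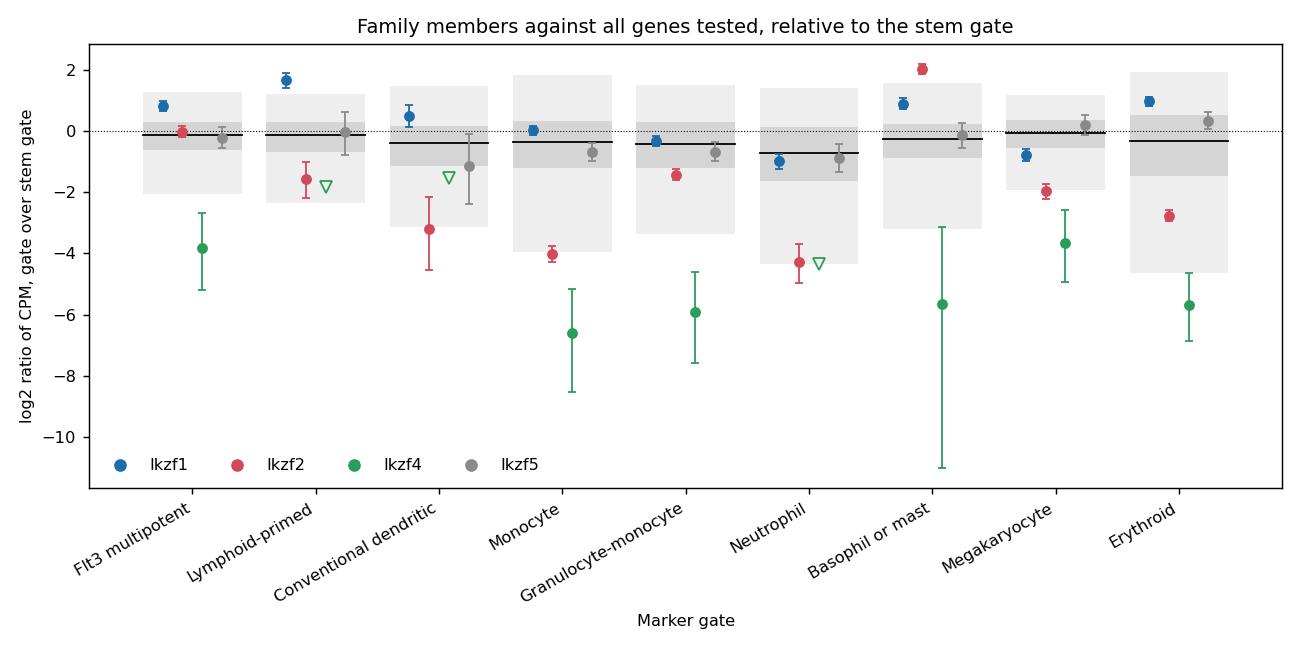
Ratio of the CPM of each member in a gate to that in the stem-like gate, on a log2 axis, with exact 95% intervals. Dark grey boxes span the middle 50% and light grey boxes the middle 90% of the genes tested that had UMIs in both gates. Black lines mark their median. Genes with 0 UMIs in a gate are left out of the boxes, while open triangles mark members with 0 UMIs at the bound that 3 counts give. *Ikzf2* stands above the light box in the basophil or mast-like gate, and *Ikzf1* does so in the lymphoid-primed-like gate.

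*Ikzf1*, the founding member, was lowest in the neutrophil-like gate, at 38.0 CPM (32.9 to 43.7). The megakaryocyte-like gate had 43.8 CPM, the granulocyte-monocyte-like gate 60.2 CPM and the stem-like gate 75.6 CPM (68.2 to 83.5). As a share of their UMIs, cells with neutrophil, granulocyte-monocyte or megakaryocyte markers thus had less of it than stem-like cells. This is no amount per cell. Unthinned, 52.9%, 70.9% and 50.9% of these cells had an *Ikzf1* UMI, against 46.4% of the shallower stem-like cells. The monocyte-like gate, at 76.3 CPM, could not be told from the stem-like gate (ratio 1.01, interval 0.906 to 1.13). The ratio to the stem-like gate was 0.503 (0.422 to 0.598) for neutrophil-like, 0.580 (0.502 to 0.669) for megakaryocyte-like and 0.796 (0.712 to 0.893) for granulocyte-monocyte-like cells.

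Higher levels of *Ikzf1* were found on the lymphoid side and, near the level of the *Flt3* multipotent-like gate, in erythroid-like and basophil or mast-like cells. The *Flt3* multipotent-like gate had 132 CPM (125 to 140), 1.75 times the stem-like level (1.56 to 1.97), and the lymphoid-primed-like gate 3.15 times that level (2.65 to 3.72). An *Ikzf1* UMI was found in 60 of 60 lymphoid-primed-like cells. The plasmacytoid dendritic-like gate reached 234 CPM (195 to 279) and the small T or innate lymphoid-like and B lineage-like gates 195 and 155 CPM. Erythroid-like cells, where Ikaros is known to act at the globin genes, had 147 CPM (143 to 151), 1.94 times the stem-like level (1.75 to 2.16), and basophil or mast-like cells had 140 CPM, 1.85 times the stem-like level (1.62 to 2.10).

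The 1298 erythroid-like cells held 38.8% of all *Ikzf1* UMIs and 26.0% of all UMIs. In order of level, each of the 8 highest gates overlapped its next lower neighbour within the interval of their ratio, from the lymphoid-primed-like to the conventional dendritic-like gate (106 CPM) and the eosinophil-like gate (104 CPM). The conventional dendritic-like level was 1.40 times the stem-like level (1.09 to 1.79), and this difference was lost when cells were thinned to 5000 UMIs (1.22, interval 0.816 to 1.78). Granulocyte-monocyte-like cells had more *Ikzf1* than megakaryocyte-like cells (1.37-fold, interval 1.23 to 1.54), and megakaryocyte-like and neutrophil-like cells could not be told apart (1.15-fold, interval 0.969 to 1.38).

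The share of cells with an *Ikzf1* UMI follows depth as well as level. In the erythroid-like gate, with a median of 31964 UMIs per cell, it was 94.1%, and in the stem-like gate 46.4%. With each cell thinned to 5000 UMIs it was 50.1% and 32.5%, and 15.9% in the neutrophil-like gate, the lowest. No gate lacked *Ikzf1*, so that a background from free RNA could not be given for it.

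*Ikzf2*, which encodes Helios, had the widest range of the members with over 1000 UMIs. The basophil or mast-like gate, defined by *Cpa3*, *Prss34*, *Mcpt8*, *Ms4a2*, *Fcer1a* and *Gzmb*, had 349 CPM (332 to 367), 4.05 times the stem-like level (3.64 to 4.51). Its 330 cells, 4.32% of the cells kept, held 24.9% of all *Ikzf2* UMIs. The 32 eosinophil-like cells were much like them, with 319 CPM (269 to 376), and so were the T or innate lymphoid-like cells, with 409 CPM (328 to 504). Among these 3 gates, no neighbours in the order differed beyond counting error, and the lowest of them was 3.70 times the next gate, the stem-like gate (3.05 to 4.48). The T or innate lymphoid-like ratio to the stem-like gate was the least settled, and ranged from 3.669 to 8.009 across the alternatives.

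Neutrophil-like cells had the lowest level among the gates where *Ikzf2* was counted, with 4.39 CPM (2.78 to 6.59). This level rests on 23 UMIs in 11 of 276 cells, with up to 9 in a single cell. Its interval, and those of ratios to it, take no account of UMIs gathered in few cells. Basophil or mast-like cells thus had 79.5 times the neutrophil-like level (52.8 to 126), and eosinophil-like cells 72.7 times (46.6 to 118). Progenitors with markers of different granulocytes therefore lay far apart in *Ikzf2*, where *Ikzf1* differed 3.67-fold (3.12 to 4.33) between basophil or mast-like and neutrophil-like cells. In shares of cells thinned to 5000 UMIs, 80.2% of basophil or mast-like, 76.9% of eosinophil-like and 1.45% of neutrophil-like cells had an *Ikzf2* UMI. Unthinned, these shares were 94.2%, 93.8% and 3.99%, at median depths of 11834, 12551 and 18949 UMIs, so that the deepest of the 3 gates had the fewest.

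The stem-like and *Flt3* multipotent-like gates could not be told apart in *Ikzf2*, with 86.2 CPM (78.3 to 94.7) and 84.4 CPM (78.4 to 90.8). From there the level was lower in every other gate of 40 cells or more except the basophil or mast-like gate. It was 0.372 times the stem-like level (0.331 to 0.419) in granulocyte-monocyte-like cells, 0.256 times (0.215 to 0.303) in megakaryocyte-like cells and 0.147 times (0.129 to 0.167) in erythroid-like cells. Monocyte-like cells had 0.0617 times that level (0.0516 to 0.0736) and neutrophil-like cells 0.0510 times (0.0320 to 0.0775), and these 2 gates did not differ beyond counting error (monocyte-like over neutrophil-like 1.21, interval 0.782 to 1.96). As a mean over cells in place of pooled UMIs the erythroid-like ratio was 0.242, and after thinning 0.246. The granulocyte-monocyte-like ratio moved with the cut on its list, to 0.181 with the cut doubled, 0.716 with it halved and 0.144 in Leiden clusters, where the megakaryocyte-like ratio was 0.597. With the cuts doubled, the monocyte-like ratio was 0.0402.

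Lymphoid-primed-like cells combined the highest *Ikzf1* with little *Ikzf2*. Their *Ikzf2* level was 29.1 CPM (19.1 to 42.3), from 27 UMIs in 16 of 60 cells, 0.344 times the *Flt3* multipotent-like level (0.225 to 0.505). In the 15 B lineage-like cells no *Ikzf2* UMI was counted, at least 5.57-fold lower than in the stem-like gate, taking 3 counts for the 0. An *Ikzf2* UMI was found in 26.7% of lymphoid-primed-like cells but in 1.67% of them once thinned, too few to place the level. The direction in them depended on how they were delimited. In Leiden clusters the ratio to the stem-like cluster was 1.14 (0.926 to 1.39), and those clusters also held 36 of the 38 T or innate lymphoid-like cells, in which *Ikzf2* was highest. Their part in the ratio was not tested.

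The make-up of the family's UMIs followed from these opposite patterns. *Ikzf2* held 67.6% of family UMIs in basophil or mast-like cells (65.6 to 69.5), 69.6% in eosinophil-like cells (62.8 to 75.8) and 54.7% in T or innate lymphoid-like cells (46.6 to 62.5). In the stem-like gate *Ikzf2* held 43.7% (40.6 to 46.9) and *Ikzf1* 38.3% (35.3 to 41.4), and *Ikzf4* held 5.88%, its largest share in any gate. The *Ikzf1* share was 55.7% in *Flt3* multipotent-like, 82.2% in lymphoid-primed-like, 77.7% in erythroid-like and 79.2% in monocyte-like cells.

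**Figure D3:**
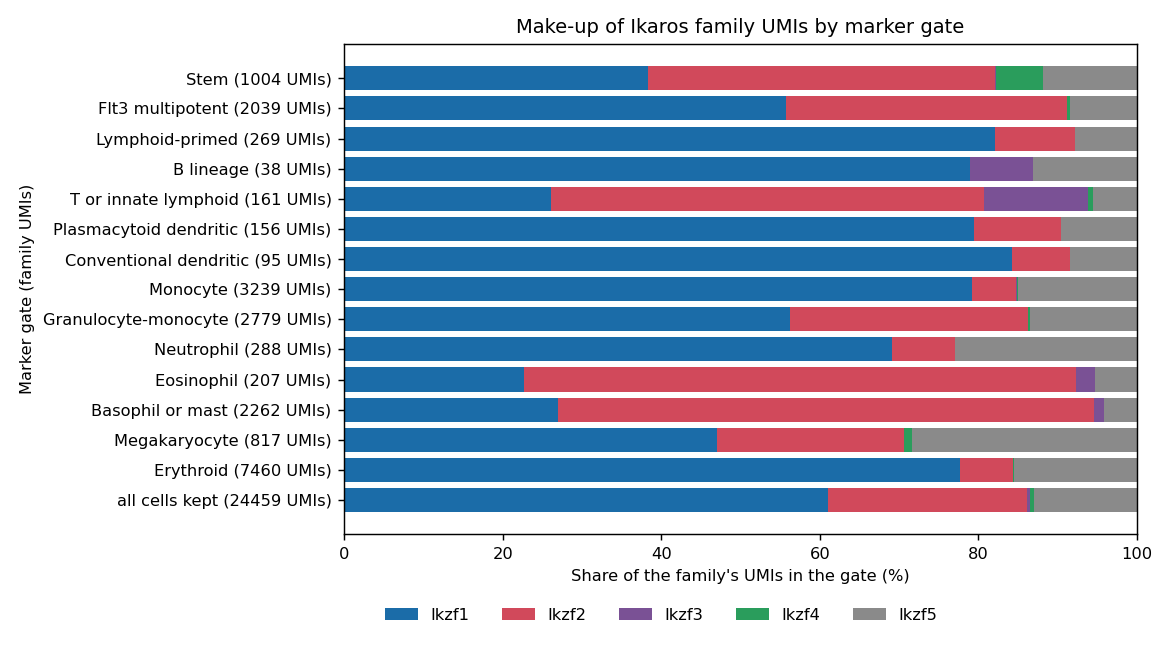
Share of the family's UMIs held by each member in each gate and in all cells kept, as stacked bars that sum to 100%, with the number of family UMIs beside each gate. *Ikzf2* takes most of the bar in the basophil or mast-like (67.6%) and eosinophil-like (69.6%) gates, and *Ikzf1* takes 77.7% in the erythroid-like gate.

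Within gates, *Ikzf2* was lower in the cells with most marker UMIs of the gate, in each lineage cut into bins other than the stem-like gate. Each of 5 gates was cut into 4 bins of cells by the rate of its marker UMIs. In the granulocyte-monocyte-like gate, by *Mpo*, *Prtn3*, *Ctsg*, *Elane* and *Ms4a3*, *Ikzf2* stood at 64.5, 42.9, 13.7 and 4.73 CPM from the lowest to the highest bin, a ratio of 0.0734 between the ends (0.0482 to 0.108). *Ikzf1* stood at 88.4, 60.3, 50.9 and 40.2 CPM in the same bins, a ratio of 0.455 (0.390 to 0.531). The lowest bin thus stood nearer to the stem-like level of *Ikzf2* (86.2 CPM), and the highest bin stood near the neutrophil-like level (4.39 CPM). *Ikzf5* differed by less than counting error between these ends (0.783, interval 0.573 to 1.06). By Leiden cluster the gate was mixed, with 470 of its cells in granulocyte-monocyte-like, 400 in *Flt3* multipotent-like and 180 in monocyte-like clusters, and the part of this mixture in the differences between bins was not tested.

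**Figure D4:**
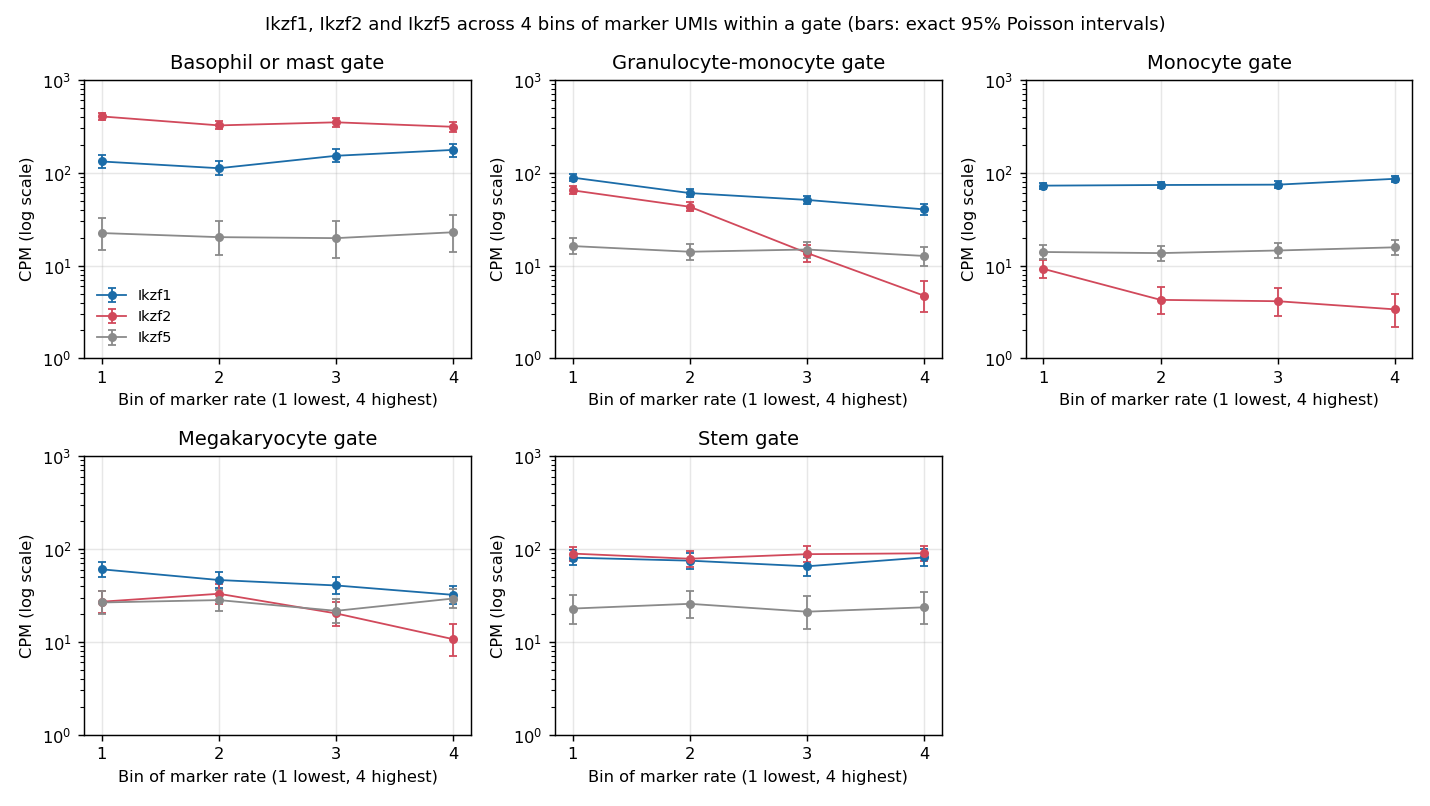
Levels of *Ikzf1*, *Ikzf2* and *Ikzf5* in 4 bins of cells within each of 5 gates, ordered by the rate of the gate's marker UMIs, as CPM on a log axis with exact 95% Poisson intervals. *Ikzf2* goes from 64.5 to 4.73 CPM across the granulocyte-monocyte-like bins and from 9.21 to 3.38 CPM across the monocyte-like bins.

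Across the other gates the differences were smaller. Between the highest and the lowest megakaryocyte-like bin, *Ikzf1* had a ratio of 0.531 (0.395 to 0.711) and *Ikzf2* of 0.395 (0.238 to 0.640). In monocyte-like cells *Ikzf2* went from 9.21 to 3.38 CPM, while *Ikzf1* was slightly higher in the last bin (1.18, interval 1.06 to 1.32). By Leiden cluster, 242 of the 1559 monocyte-like cells lay in *Flt3* multipotent-like and 58 in conventional dendritic-like clusters. The part of this mixture in the differences was not tested. In the basophil or mast-like gate, by *Prss34* and *Mcpt8*, *Ikzf2* was high in all bins, at 403 CPM in the lowest and 311 CPM in the highest (0.774, interval 0.665 to 0.898), and *Ikzf1* was 1.33-fold higher in the highest bin (1.06 to 1.67). In the stem-like gate, *Ikzf1*, *Ikzf2* and *Ikzf5* had ratios of 1.01, 1.01 and 1.03 between the end bins, with intervals from 0.594 to 1.78 at the widest.

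Cells of a gate could also be divided by a single lineage gene. In the *Flt3* multipotent-like gate, 201 cells had a UMI of *Dntt*, the terminal transferase of lymphoid progenitors. They had 150 CPM of *Ikzf1* against 120 CPM in the 302 cells without (1.25-fold, interval 1.11 to 1.41), and 60.7 against 101 CPM of *Ikzf2* (0.602, interval 0.511 to 0.708). The 2 genes thus differed in opposite directions among multipotent-like cells, as they did between the lymphoid-primed-like gate and this one. Median depths were 16348 UMIs with and 16152 UMIs without *Dntt*, and *Ikzf5* did not differ beyond counting error (0.951, interval 0.690 to 1.30).

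*Ikzf4*, which encodes Eos, had 59 of its 115 UMIs in the stem-like gate (51.3%, interval 41.8 to 60.7), a gate with 3.35% of all UMIs. The level there was 11.6 CPM (8.82 to 14.9), against 0.816 CPM in *Flt3* multipotent-like, 0.913 CPM in megakaryocyte-like, 0.228 CPM in erythroid-like and 0.193 CPM in granulocyte-monocyte-like cells. These came from 7, 8, 9 and 5 UMIs. The *Flt3* multipotent-like ratio of 0.0705 (0.0271 to 0.154) was 0.0140 with the cuts doubled. No UMI was counted in 276 neutrophil-like cells, at least 20.2-fold lower than in the stem-like gate, or in 60 lymphoid-primed-like cells, at least 3.59-fold lower, taking 3 counts for each 0. An *Ikzf4* UMI was found in 54 stem-like cells (9.34%, or 5.86% after thinning), and in 0 of 276 neutrophil-like cells, which allows, at 3 counts, a share of cells with a UMI of up to 1.09%, although these cells were deeper. The T or innate lymphoid-like gate had 1 UMI, too few to place it in the order.

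Within the stem-like gate *Ikzf4* was highest in the cells with most stem cell marker UMIs. It stood at 7.14, 11.01, 10.1 and 19.2 CPM from the lowest to the highest bin of marker rate, a ratio of 2.69 between the ends (1.22 to 6.36, from 22 and 10 UMIs). The 254 cells with a UMI of *Vwf*, a platelet gene that marks a megakaryocyte-biased share of stem cells, had 15.2 CPM against 8.45 CPM in the 324 without (1.80-fold, interval 1.04 to 3.18). The same cells had less of *Ikzf1*, *Ikzf2* and *Ikzf5*, with ratios of 0.758 (0.614 to 0.933) for *Ikzf1*, 0.762 (0.625 to 0.925) for *Ikzf2* and 0.674 (0.454 to 0.991) for *Ikzf5*. The 64 stem-like cells with a UMI of *Flt3*, a receptor of multipotent progenitors, had 1.56-fold *Ikzf1* (1.19 to 2.03), 1.78-fold *Ikzf2* (1.40 to 2.25) and 2 UMIs of *Ikzf4* (0.239-fold, interval 0.0282 to 0.902), while *Ikzf5* did not differ beyond counting error (0.907, interval 0.479 to 1.59).

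*Ikzf3*, which encodes Aiolos, was counted mainly in basophil or mast-like and T or innate lymphoid-like cells. Of 83 UMIs, 28 lay in 25 basophil or mast-like cells (6.39 CPM, interval 4.25 to 9.24) and 21 in 13 T or innate lymphoid-like cells (97.7 CPM, interval 60.4 to 149). The eosinophil-like gate had 5 UMIs and the B lineage-like gate 3. No UMI was counted in the erythroid-like, megakaryocyte-like, *Flt3* multipotent-like, lymphoid-primed-like, neutrophil-like or either dendritic-like gate, and 0 of 1298 erythroid-like cells allow, at 3 counts, a share of cells with a UMI of up to 0.231%, which is no limit on cells that express the gene. The share was 7.58% in basophil or mast-like cells (4.96 to 10.98), which had fewer UMIs per cell than erythroid-like cells (medians of 11834 and 31964), and 3.41% after thinning. The level in T or innate lymphoid-like cells was 15.3 times that in basophil or mast-like cells (8.25 to 27.9). Apart from the B lineage-like gate, where *Ikzf2* was at 0, the gates with the highest *Ikzf3* levels were those with the highest *Ikzf2* levels. In the lymphoid-primed-like gate, the limit that a count of 0 allows was 3.23 CPM, so that a level like the 6.39 CPM above would have been seen and a lower one might not.

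*Ikzf5*, which encodes Pegasus, had the narrowest range. It was 10.6 CPM (4.57 to 20.9) in conventional dendritic-like and 29.3 CPM (27.7 to 31.1) in erythroid-like cells, with the small T or innate lymphoid-like gate at 41.9 CPM from 9 UMIs. In the order of levels, the only neighbours that differed beyond counting error were the *Flt3* multipotent-like gate (20.1 CPM) and the granulocyte-monocyte-like gate (14.5 CPM), with a ratio of 1.38 (1.15 to 1.66). Granulocyte-monocyte-like, monocyte-like, neutrophil-like and conventional dendritic-like cells lay on the lower side of this step. Relative to the stem-like gate (23.4 CPM), it was 0.617 (0.504 to 0.761) in monocyte-like, 0.620 (0.503 to 0.768) in granulocyte-monocyte-like and 0.539 (0.393 to 0.735) in neutrophil-like cells.

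Megakaryocyte-like cells had 26.5 CPM of *Ikzf5*, which did not differ from the stem-like level beyond counting error (1.13, interval 0.905 to 1.43). Since *Ikzf1* and *Ikzf2* were low there, *Ikzf5* held 28.4% of the family's UMIs (25.3 to 31.6), its largest share in any gate. The erythroid-like ratio of 1.25 (1.04 to 1.53) was no longer beyond counting error after thinning (1.08, interval 0.828 to 1.43). The conventional dendritic-like ratio of 0.453 (0.191 to 0.923) rests on 8 UMIs. It was not beyond counting error with the cuts doubled (0.393) or halved (0.616) or in Leiden clusters (0.858).

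Whether members were found in the same cells was read after thinning to 5000 UMIs, because deep cells show more of every gene. In the stem-like gate, 30.6% of the 183 cells with an *Ikzf1* UMI (24.02 to 37.8) and 30.3% of the 380 without (25.7 to 35.2) had an *Ikzf2* UMI. In the basophil or mast-like gate the shares were 80.5% (73.7 to 86.2) and 79.9% (72.7 to 85.9). In both gates the intervals of cells with and without *Ikzf1* overlapped. In the *Flt3* multipotent-like gate the shares were 39.8% (33.5 to 46.5) and 28.7% (23.4 to 34.6), with intervals that overlapped slightly. *Ikzf4* was found in 6.56% of stem-like cells with *Ikzf1* (3.43 to 11.2) and 5.53% of those without (3.45 to 8.32).

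The proteins through which the family acts were looked at by a list of 22 partner genes, 13 of NuRD, 4 of other corepressors and 5 of the cereblon ubiquitin ligase. All 22 passed the minimum in every comparison with a gate of 40 cells or more. Few of them were called. In the basophil or mast-like gate 0 of 22 were called in either direction (8.77% of all genes were higher and 21.9% lower), and their median ratio to the stem-like gate was 1.03, beside 0.828 for all genes tested. In the neutrophil-like gate 5 were called lower, *Chd3*, *Chd4*, *Mta3*, *Gatad2b* and *Crbn*, where 42.3% of all genes were lower, with a median over the list of 0.718 beside 0.599 for all genes. In the erythroid-like gate 2 were called higher and 2 lower (14.3% and 33.3% of all genes), and the median was 1.36 beside 0.789.

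Over the gates of 40 cells or more, *Chd3* and *Mta3* had the widest ranges of the partners. *Chd3*, a remodeller subunit of NuRD, had 93.7 CPM in stem-like and 121 CPM in basophil or mast-like cells, and was called lower in the monocyte-like (0.236, interval 0.210 to 0.265), granulocyte-monocyte-like (0.324, interval 0.289 to 0.364), neutrophil-like (0.104, interval 0.0763 to 0.139), megakaryocyte-like (0.0987, interval 0.0770 to 0.125) and erythroid-like gates (0.194, interval 0.172 to 0.218). Those were 5 of the 7 gates in which *Ikzf2* was called lower. From 13.6% (megakaryocyte-like) to 42.3% (neutrophil-like) of all genes were called lower in each of the 5. How many genes were called lower in all 5 was not counted, so the overlap says nothing of a link. *Mta3*, another NuRD subunit, was called higher in the *Flt3* multipotent-like (2.60, interval 2.21 to 3.06) and lymphoid-primed-like gates (5.80, interval 4.73 to 7.13), where its level reached 212 CPM. *Chd4*, the more abundant remodeller, was called lower in the conventional dendritic-like gate (0.489, interval 0.410 to 0.580), as was *Mta1*. The erythroid-like calls were *Mbd2* (2.92, interval 2.65 to 3.23) and *Cul4a* (2.25, interval 1.94 to 2.63) as higher and *Chd3* and *Ctbp2* as lower.

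*Crbn*, the substrate receptor of the cereblon ligase, stayed between 14.7 and 35.5 CPM over the 14 gates. Its ratio to the stem-like gate in neutrophil-like cells was 0.493 (0.370 to 0.652).

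Likeness of pattern was measured as Pearson's r of log2(CPM + 10) over the 10 gates of 40 cells or more, among 8878 genes with 1000 UMIs or more. It is a description over gates of 1 library that share their depth and preparation. The genes nearest to *Ikzf1* were *Ube2d3* (r = 0.93), *Eri2*, *Relt*, *Gramd4* and *Trim59*. Those nearest to *Ikzf2* were *Ier3* (r = 0.969), *Tbc1d9b*, *Fut8*, *Hist1h2ac* and *Hgf*, and those nearest to *Ikzf5* were *Pip5k1a* (r = 0.958), *Mtif2*, *Gtf2h3*, *Yod1* and *Psip1*. Between members, r was 0.353 between *Ikzf1* and *Ikzf2*, 0.336 between *Ikzf1* and *Ikzf5* and 0.382 between *Ikzf2* and *Ikzf5*.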

How the data were processed

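The deposited values are raw UMI counts of a 10x Chromium 3′ library. Per the study's methods and the sample's labels, they came from Cell Ranger 6.0.2 run on mm10. The extraction label of the sample describes a bulk RNA kit instead, while the matrix has the form of a single-cell library. The members and lists were chosen with earlier results of these data known.

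The study's filter was applied (UMIs between 1000 and 50000, genes between 1000 and 6500, mitochondrial share below 7%). A cell entered a gate when the list's UMIs per 10000 reached a cut (4 to 64 by list) and 2 genes or more of the list were detected. Lists of committed lineages came before those of multipotent cells. The cuts were set on the marker genes alone, after these had been seen, and the bins and single-gene splits were chosen after the gates. Scrublet (Scanpy 1.11.5, expected rate 6%) marked 265 cells (3.47%) as doublets, which were kept. Thinning without replacement to 5000 UMIs left out 99 cells, 23 of them in the T or innate lymphoid-like gate. Intervals were computed with SciPy 1.17.1. Named genes are the members, the partners called, the gate genes and the 5 genes most like each member with 1000 UMIs or more. No protein table was used here, so fingers were found in translated GENCODE transcripts and aligned with Biopython 1.88. The ratio step was tested on simulated data. Alternatives were other cuts, cell filters, doublet removal, denominators, thinning, a mean over cells and Leiden clusters (leidenalg 0.10.2). Bins of erythroid-like cells are not reported here.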

Additional observations from a re-analysis of the deposited data

How the results depend on the processing

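With 1 library, differences between mice cannot be given. No paired analysis was possible because 1 library was used. The 45 ratios to the stem-like gate in gates of 40 cells or more were recomputed under 9 alternatives, which gave 365 values. Of these, 349 counted as unchanged, as did 142 of 152 values in the smaller gates. Unchanged values kept their side of counting error, but could cross 1 where neither interval left out 1. A mean over cells counted as unchanged when it lay within the main interval. The 2-fold limit of a call played no part. *Ikzf2* thus counted as unchanged at 0.716 in granulocyte-monocyte-like cells with cuts halved and at 0.597 in megakaryocyte-like Leiden clusters, where it was no longer called lower. Leiden clusters gave no B lineage-like, T or innate lymphoid-like, plasmacytoid dendritic-like or neutrophil-like class, so these have no value there.

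With cuts doubled, the ratio of *Ikzf5* was 0.393 in conventional dendritic-like and 1.24 in erythroid-like cells, and with cuts halved it was 0.616 in conventional dendritic-like cells and that of *Ikzf3* was 0 in erythroid-like cells, none beyond counting error. The same held for *Ikzf5* in erythroid-like cells under the stricter cell filter (1.13) and thinning (1.08), for *Ikzf3* in erythroid-like cells over all barcodes (0.0521), for *Ikzf1* in conventional dendritic-like cells without mitochondrial, ribosomal protein and haemoglobin UMIs (1.275) and after thinning (1.22), for *Ikzf4* in lymphoid-primed-like cells after thinning (0), and for *Ikzf5* in conventional dendritic-like Leiden clusters (0.858). Ratios that came to lie beyond counting error were those of *Ikzf5* in lymphoid-primed-like cells after thinning (0.241) and of *Ikzf2* (0.903) and *Ikzf5* (0.815) in *Flt3* multipotent-like Leiden clusters. *Ikzf2* turned direction in lymphoid-primed-like Leiden clusters (1.14), which also held the T or innate lymphoid-like cells. As a mean over cells, *Ikzf2* in erythroid-like cells had a ratio of 0.242. The causes were not tested. In neutrophil-like cells, *Ikzf1* came to lie past 2-fold lower with cuts doubled (0.485) and after thinning (0.445), and *Ikzf5* under the stricter cell filter (0.472) and after thinning (0.392). Across the alternatives, the ratio of *Ikzf2* ranged from 3.735 to 5.129 in basophil or mast-like cells and that of *Ikzf1* from 2.65 to 3.27 in lymphoid-primed-like cells.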

Other observations

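The 1072 cells that passed no marker list held more *Ikzf2* than their number. They made up 14.02% of the cells kept and had 1297 of its 6140 UMIs (21.1%, interval 20.1 to 22.2), at 92.0 CPM (87.1 to 97.2), close to the 86.2 CPM of the stem-like gate. In Leiden clusters, 342 of them lay in megakaryocyte-like, 292 in stem-like and 169 in *Flt3* multipotent-like clusters. *Ikzf1* stood at 99.3 CPM in them, near the 98.3 CPM of all cells kept, and *Ikzf4* at 1.42 CPM from 20 UMIs. The 208 cells that passed the lists of more than 1 lineage had 39.3 CPM of *Ikzf2* and 8 UMIs of *Ikzf3*.

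The 1172 barcodes removed by the study's filter held 139 CPM of *Ikzf1* (134 to 145), 21.2 CPM of *Ikzf2* (19.0 to 23.6) and 22.9 CPM of *Ikzf5* (20.6 to 25.5).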
